A study of Mus musculus with 20 samples.

Results

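Opposite-strand lncRNAs carry the symbol of the gene they lie across from, with the ending os. The members here were the table's genes whose mouse symbol ends in os, or os and a digit, and whose symbol without that ending is also in the table; the stem names the partner gene. The rule took 293 of 56941 gene rows (292 symbols) and 250 partner genes. All 293 lay on the opposite strand of the partner's chromosome in the GENCODE M21 annotation, where 254 were classed as antisense and 11 as protein-coding. RNA came from the whole soleus, a slow postural muscle, of 1 hind limb of C57BL/6J mice. The control group, 10 libraries, was sham-irradiated. The space group, also 10 libraries, had 14 days of hind-limb unloading together with radiation and a stress treatment supplied in the food; the effects of these exposures cannot be told apart, and age is not given in the labels. The labels describe the groups as 10 mice each and say no more on the origin of replicates, so p-values cover only the spread among these libraries.

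A transcript on the strand opposite a gene can arise in several ways. Some start beside the gene's own promoter and run away from it, some cross its exons, and some lie within an intron. In other settings such RNAs are known to raise, lower or leave untouched the neighbouring gene, and some serve mainly as precursors of small RNAs: Nr6a1os and Dnm3os contain microRNA genes. The level of a lncRNA and that of its partner are therefore separate measurements.

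Of the 293 members, 162 had exons that overlap exons of the partner. Another 80, here called intronic, had exon bases within the partner's body without exon overlap, whether or not they lay wholly inside it. Divergent members numbered 35 (starts within 5000 bases, pointing away from each other), 15 lay apart and 1 overlapped the body in another way. The promoter windows of 5 members on which the results turn follow, because they show how differently these genes begin. Each is the RefSeq window of 250 bases before to 50 after the start on GRCm38.p6, 5′ to 3′ on the lncRNA's strand. Where a lncRNA had more than 1 window and its partner had one, the window starting nearest the partner's start was taken. Small start distances below can reflect that choice. Medians and motif shares over sets of genes used the first listed window of each gene. Capitals mark matches to the searched motifs on either strand: a GC box (GGGCGG), the motif of the MEF2 family, and the CCAAT box. No printed match overlaps another. Mkln1os lies at chr6:31398724-31399023, minus strand, Map2k3os at chr11:60931818-60932117, minus strand, and Junos at chr4:95052067-95052366, plus strand. Hectd2os lies at chr19:36689430-36689729, minus strand, and Tbx3os1 at chr5:119671459-119671758, minus strand.
Mkln1os: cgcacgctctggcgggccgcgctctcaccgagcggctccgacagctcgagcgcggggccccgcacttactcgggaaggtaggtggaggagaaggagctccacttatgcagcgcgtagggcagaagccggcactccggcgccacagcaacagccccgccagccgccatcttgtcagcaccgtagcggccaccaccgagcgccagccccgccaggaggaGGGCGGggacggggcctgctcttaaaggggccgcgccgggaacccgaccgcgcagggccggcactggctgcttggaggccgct
Map2k3os: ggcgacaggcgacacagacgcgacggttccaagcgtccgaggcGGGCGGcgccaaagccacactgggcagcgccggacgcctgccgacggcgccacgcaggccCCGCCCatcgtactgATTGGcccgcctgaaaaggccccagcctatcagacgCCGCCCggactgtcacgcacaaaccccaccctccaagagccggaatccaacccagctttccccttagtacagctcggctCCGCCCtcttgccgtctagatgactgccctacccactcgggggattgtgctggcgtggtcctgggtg
Junos: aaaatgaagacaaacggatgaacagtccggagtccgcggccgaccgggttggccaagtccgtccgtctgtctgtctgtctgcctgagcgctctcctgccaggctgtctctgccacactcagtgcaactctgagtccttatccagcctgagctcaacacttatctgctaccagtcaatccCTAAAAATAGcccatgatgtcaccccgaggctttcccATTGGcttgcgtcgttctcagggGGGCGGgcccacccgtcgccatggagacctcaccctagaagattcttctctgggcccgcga
Hectd2os: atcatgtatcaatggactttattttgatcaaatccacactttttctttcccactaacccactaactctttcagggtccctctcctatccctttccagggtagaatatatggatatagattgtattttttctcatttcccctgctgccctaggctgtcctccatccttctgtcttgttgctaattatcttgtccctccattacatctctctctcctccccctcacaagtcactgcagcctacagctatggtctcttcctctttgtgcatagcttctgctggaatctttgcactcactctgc
Tbx3os1: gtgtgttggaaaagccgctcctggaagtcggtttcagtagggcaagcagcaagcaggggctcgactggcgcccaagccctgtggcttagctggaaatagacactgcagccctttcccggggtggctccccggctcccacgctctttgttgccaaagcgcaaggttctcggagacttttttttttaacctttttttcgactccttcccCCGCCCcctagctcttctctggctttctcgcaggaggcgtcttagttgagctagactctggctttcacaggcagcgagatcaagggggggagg

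By their RefSeq starts, the first 3 windows are head to head with the partner's. The layout classes above rest on GENCODE M21, which differs. There, exons of Mkln1os and Junos overlap those of the partner by 39 and 232 bases, and both were classed as overlapping. Map2k3os was classed as divergent. In RefSeq, Mkln1os starts 55 bases from Mkln1 and shares 154 bases of window with it, Map2k3os starts 187 bases from Map2k3 and shares 286, and Junos starts 95 bases from Jun and shares 194. CpG dinucleotides numbered 35 in the Mkln1os window, 30 for Map2k3os, 17 for Junos, 14 for Tbx3os1 and 0 for Hectd2os. Windows were found for 33 of the 55 tested lncRNAs that are not protein-coding and for 42 of their partners. The median CpG count was 19 for these lncRNAs and 20 for the partners, against 7 over 27025 genes. Those genes were not limited to the ones tested in soleus. The comparisons of CpG and motifs therefore show no trait particular to opposite-strand lncRNAs. A GC box stood in 17 of the 33 lncRNA windows (51.5%) and in 35.9% of all windows. The other motifs searched were the TATA box (TATAAA), in 15.2% against 14.2% of all windows, the CCAAT box, in 33.3% against 37.9%, and the AP-1 motif (TGANTCA), in 3.03% against 7.93%. The MEF2 motif stood in 3.03% against 3.70%, its single match being in Junos, and the palindromic cyclic AMP response element in 3.03% against 1.88%. Matches describe letters only, and windows of a head-to-head pair share bases.

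The libraries held 17336017 to 43424464 counts, and 16778 genes passed a filter on low counts. Space replicates 1 to 4 stood apart from the rest: the summed CPM (counts scaled to library size, here by TMM factors) of 12 Schwann and myelin genes was 579 to 1665 there, 112 to 213 in space replicates 5 to 10 and 118 to 225 in controls, with none of the 12 at 0. Summed CPM of 4 adipocyte genes was 70.5 to 169 in those 4 libraries, 9.72 to 68.1 in the other 6 and 11.0 to 87.2 in controls. The 8 muscle fibre genes, which mark the labelled tissue, summed to 211015 to 262518 CPM in controls, 180909 to 221578 in space replicates 1 to 4 and 221333 to 256933 in the others. The part of nerve and fat RNA in the results was not tested. Calls of the tested members, their partners and the pair differences that change without space replicates 1 to 4 are named with the results.

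No source used here states whether reads were counted by strand, so this was read from the counts. Gene models wholly inside introns of another gene, with no exon overlap, were compared by strand. For host genes of at least 50 CPM, the median level was 1.38 CPM per kb for 405 models on the host's strand and 0.0048 CPM per kb for 185 models on the opposite strand, 0.350% of the former. The table thus keeps the strands apart to this degree. In the 35 tested pairs with overlapping exons, opposite-strand reads at that share could make up a median of 0.157% of the lncRNA's counts and at most 3.33%, in Myadml2os.

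**Figure D1:**
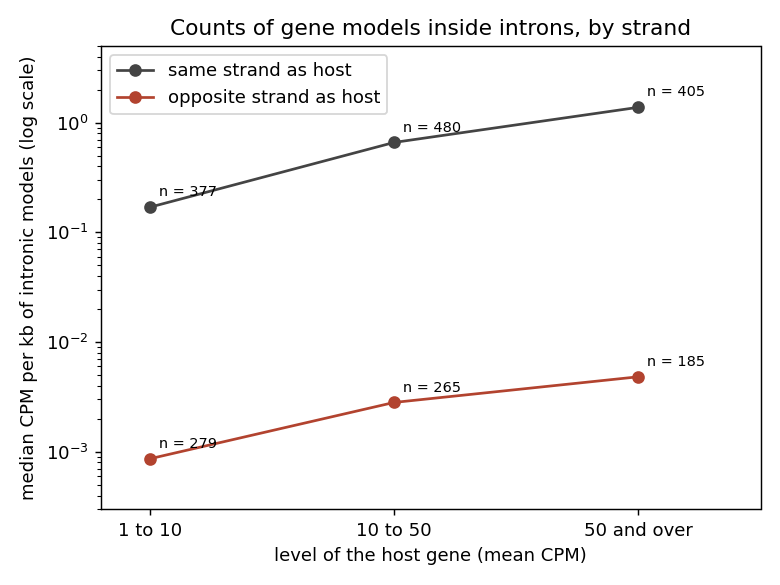
Median CPM per kb (log scale) of gene models inside introns, by the mean CPM of the host gene; grey, same strand as the host, red, opposite strand, with the number of models beside each point. For hosts of 50 CPM and over, the same-strand median was 1.38 and the opposite-strand median 0.0048 CPM per kb.

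Most opposite-strand genes were near silent in soleus. The filter kept 60 of the 293, and 233 were not tested, 67 of them without a single count. Over the whole table it kept 16778 of 56941 rows, so most rows of any kind were untested. The untested members had a median of 4 counts over all 20 libraries. Untested members include Igf2os with 139 counts, Dio3os with 170 and Chrna1os, which lies beside an acetylcholine receptor subunit gene, with 95. All following counts describe the 60 that passed, 55 lncRNAs and 5 genes annotated as protein-coding (Wdr83os, Cebpzos, Brd3os, Slc7a6os and Ccpg1os), and not all members. A gene that passed through its higher group alone was more likely to differ. Notumos, Tspan32os and Lrrc75aos2 had control means of 0.287, 0.327 and 0.258 CPM and space means of 0.772, 0.693 and 0.467. They may have passed mainly through the space group, so their calls upward carry this limit.

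Among the 55 tested lncRNAs, 26 were higher and 3 lower in space muscle at an edgeR adjusted p under 0.05 (52.7% called), and 26 were not called. Over all genes tested, 57.6% were called, 28.7% higher and 28.9% lower, so that the share called lies near the background. The median log2 fold change of the 55 was 0.29, against 0.02 over all tested genes and 0.22 over 1272 other tested lncRNAs, of which 486 were higher and 214 lower. Thus 89.7% of called opposite-strand lncRNAs and 69.4% of other called lncRNAs were higher. The 3 that fell were Hectd2os, Mkln1os and Etaa1os. Of the 5 protein-coding members, Wdr83os, Cebpzos and Brd3os fell and the others were not called. Ranges of the groups lay apart for 7 lncRNAs upward and 2 downward, where the background is 6.48% and 11.0% of tested genes. In bulk tissue, fewer cells of a type and less RNA per cell cannot be told apart. Without space replicates 1 to 4, 23 lncRNAs were higher and 4 lower, the last being Ttc39aos1 (log2 fold change -0.96, adjusted p = 0.0321), which passed the filter only there. Tspan32os (log2 fold change 0.47, adjusted p = 0.140), Zbtb11os1 (0.20, 0.176), Hoxb3os (0.47, 0.0552) and Hoxa11os (0.63, 0.0506) were then not called, and Irx3os was (1.00, 0.0136). With all libraries their log2 fold changes were, in that order, 1.11, 0.29, 0.47, 0.57 and 0.73. Fewer libraries can cost a call even where the change stays the same.

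**Figure D2:**
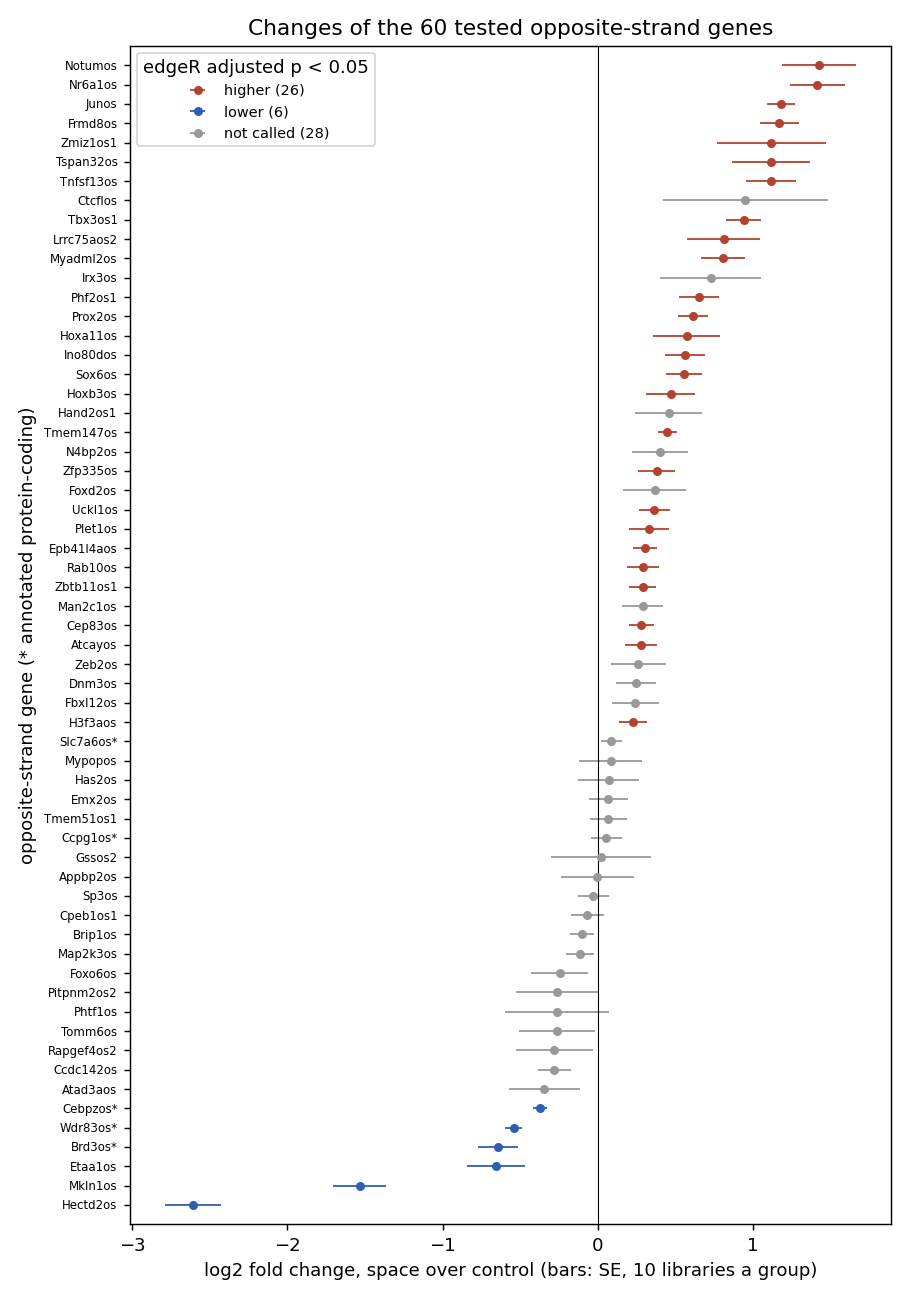
Log2 fold change, space over control, of each of the 60 tested opposite-strand genes (points) with its SE (bars, 10 libraries a group), red for the 26 called higher, blue for the 6 called lower and grey for the 28 not called. Hectd2os lies farthest down at -2.61 and Notumos, which was low in controls, farthest up at 1.42.

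Among the 53 tested partners of tested members, 24 were higher and 11 lower (66.0% called), with a median log2 fold change of 0.17. Over all 174 tested partners, which include those of untested members, 52 were higher and 51 lower (59.2% called), with a median of -0.02; without space replicates 1 to 4, 46 were higher and 53 lower. Among the partners of tested members, Tmem147, Epb41l4a, Atad3a (-0.16, adjusted p = 0.0511) and Mypop (0.26, adjusted p = 0.0694) then lost their calls, and Jun (upward) and Has2 (-0.61, adjusted p = 0.0252) gained one. In 53 pairs both genes were tested. Both were higher in 10 pairs (Frmd8os, Ino80dos, Lrrc75aos2, Nr6a1os, Phf2os1, Sox6os, Tnfsf13os, Uckl1os, Zfp335os and Zmiz1os1), and both were lower in 3 (Etaa1os, Hectd2os and Wdr83os). The lncRNA was higher and its partner lower in 4 (Epb41l4aos, Myadml2os, Rab10os and Tmem147os), and Brd3os and Cebpzos fell where Brd3 and Cebpz rose. In 9 pairs the lncRNA alone was called, in 16 the partner alone and in 9 neither. The sign of change was the same in 34 of 53 pairs (64.2%), against 439 of 748 other annotated opposite-strand pairs (58.7%). Both genes were called the same way in 24.5% of member pairs and 23.5% of the others, and opposite ways in 11.3% and 11.9%.

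A call in one gene and not the other shows no difference, so the difference of change was itself tested. In each library, the log2 CPM of the partner was subtracted from that of the opposite-strand gene. These values were compared between the groups with limma over 816 annotated opposite-strand pairs. A difference was called in 26 of the 53 member pairs (49.1%), where the background is 48.0%. The opposite-strand gene moved up relative to its partner in 16 and down in 10, against 33.1% and 15.0% of all pairs. Of the 10, Cebpzos, Brd3os and Slc7a6os are annotated as protein-coding, while the pairs outside the members all hold a lncRNA. Without space replicates 1 to 4 the difference was called in 21 of the same 53 pairs: Phf2os1, Ino80dos, Cep83os, Hoxb3os, Rapgef4os2 and Tmem51os1 lost it, and Has2os gained it (0.65, adjusted p = 0.0348). With all libraries and without those 4, the differences were 0.38 and 0.31 for Phf2os1, 0.42 and 0.40 for Ino80dos, and 0.30 and 0.26 for Cep83os. They were 0.60 and 0.59 for Hoxb3os, 0.56 and 0.56 for Rapgef4os2, and -0.52 and -0.43 for Tmem51os1. A call can also be lost because fewer libraries are left. Layout made little visible difference in these small classes: 17 of 35 pairs with overlapping exons, 5 of 10 divergent, 1 of 4 intronic and 3 of 4 apart were called. Of 24 pairs whose starts lay within 1000 bases, 11 were called different, and 15 of the other 29 were.

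**Figure D3:**
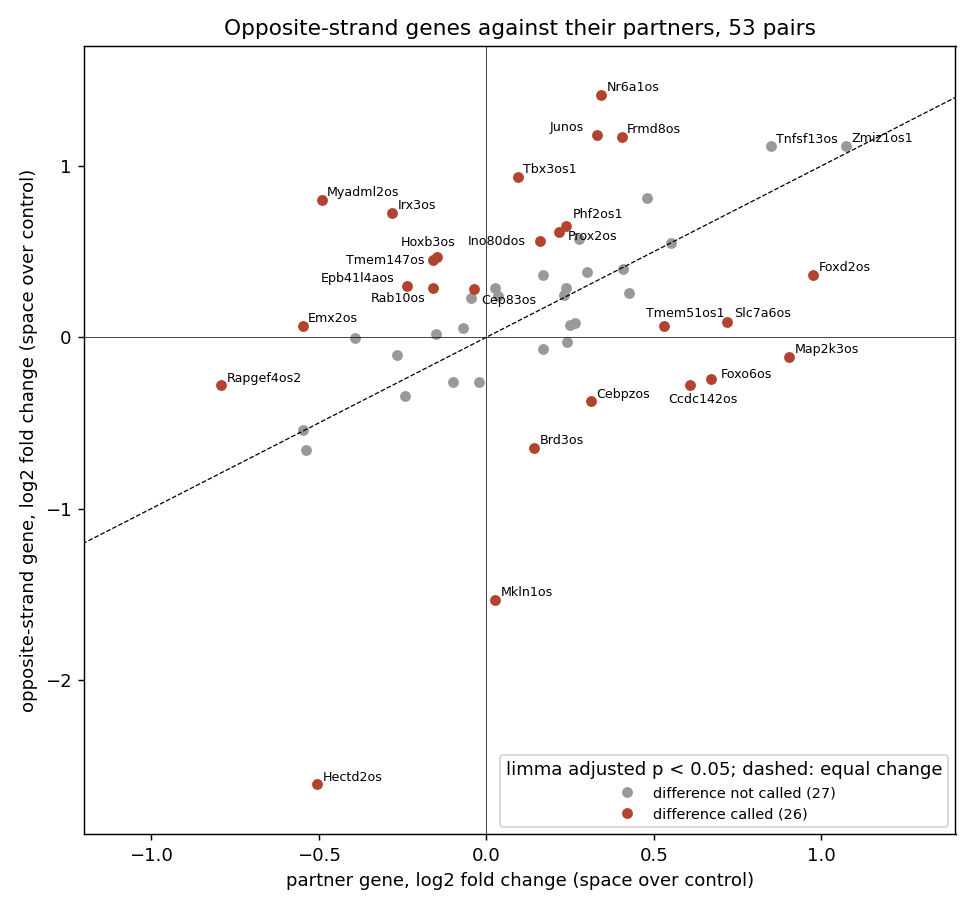
Log2 fold change of each opposite-strand gene (vertical axis) against that of its partner (horizontal axis) in 53 pairs; the dashed line marks equal change, and red points are the 26 pairs whose difference was called. Hectd2os and Mkln1os lie far below the line, and Myadml2os, Irx3os and Nr6a1os far above it.

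Hectd2os showed the largest change of all tested members. It lies across exons of Hectd2, a gene of a ubiquitin ligase of the HECT family, with its start 151002 bases from that of Hectd2. In controls it stood at 36.1 to 53.7 CPM (median 42.8), and in space muscle at 3.88 to 12.7 CPM (median 6.27). No space library came near the lowest control, and the 2 highest, at 12.7 and 12.6 CPM, were space replicates 2 and 3. This was a 6.10-fold fall (log2 fold change -2.61 ± 0.181 SE, adjusted p = 3e-10), and -2.89 without space replicates 1 to 4. Hectd2 fell less, from 11.0 to 18.4 CPM (median 13.3) to 7.99 to 10.8 (median 9.28), 1.42-fold (adjusted p = 1.23e-05), again with the groups apart. Per kb of exon, Hectd2os was 5.08 times as abundant as Hectd2 over all libraries. On the log2 scale, the lncRNA lay above its partner by a median of 1.69 in controls while the median was -0.72 in space muscle, a difference of -2.20 ± 0.183 SE (adjusted p = 1.03e-09).

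Mkln1os fell while its partner, head to head with it in RefSeq, was not called. Mkln1 encodes muskelin, part of the CTLH ubiquitin ligase complex. Mkln1os ranged from 1.28 to 1.76 CPM in controls (median 1.56) and from 0.239 to 0.889 in space muscle (median 0.518). The groups did not overlap, and the fall was 2.90-fold (adjusted p = 5.88e-08). Mkln1 lay at 102 to 115 CPM in controls and 104 to 125 in space muscle, with broad overlap and no call (log2 fold change 0.03, adjusted p = 0.557). Upper-quartile or library-size scaling gave Mkln1 a call upward (0.09 and 0.10). The change in the ratio of the pair, which carries almost no scaling, was -1.56 ± 0.185 SE (adjusted p = 3.17e-07).

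Partners were grouped by their known role, read from the symbol, and other groupings are possible. Cebpz and Brd3 were put with chromatin and RNA, and their members Cebpzos and Brd3os fell. Among the 19 tested members whose partners were put with transcription factors or coactivators, 10 rose and none fell, with a median log2 fold change of 0.47. The share called, 52.6%, lies near the 57.6% of all tested genes (28.7% higher, 28.9% lower). Rises also outnumbered falls among all tested lncRNA members, 26 to 3, so the direction is not particular to this role. No test compared the role groups with other genes. Of the 17 partners tested, 9 rose and 1 fell (58.8% called). Junos lies beside Jun, a subunit of the AP-1 transcription factor. It measured 2.72 to 4.57 CPM in controls (median 3.45) and 6.32 to 9.49 in space muscle (median 7.52). All 10 space libraries exceeded all controls, a 2.27-fold rise (log2 fold change 1.18 ± 0.0908 SE, adjusted p = 1.17e-10). Jun itself overlapped between groups, at 77.5 to 122.5 CPM and 83.4 to 238 CPM, and was not called (0.33, adjusted p = 0.0849). Jun was called upward without space replicates 1 to 4 (0.54, adjusted p = 0.0131), by DESeq2 (0.34, adjusted p = 0.0380) and with library-size scaling (0.39, adjusted p = 0.0212). Each of these sets included space replicate 7, at 238 CPM, where the next highest space library had 159. Under either set of libraries Junos moved up relative to Jun, by 0.90 ± 0.169 SE with all 20 (adjusted p = 0.000114).

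Tbx3os1 starts 696 bases from Tbx3, a T-box repressor of limb and heart development. Its level was 1.56 to 3.36 CPM in controls (median 2.43) and 3.58 to 5.53 in space muscle (median 4.66). Here too the groups were apart, 1.92-fold (adjusted p = 1.39e-07), whereas Tbx3, at 34.5 to 58.9 and 37.2 to 55.7 CPM, overlapped throughout (adjusted p = 0.363). The pair differed by 0.82 ± 0.160 SE (adjusted p = 0.000188). Nr6a1os, inside an intron of the orphan nuclear receptor gene Nr6a1, rose from 0.805 to 2.38 CPM (median 1.36) to 2.55 to 5.37 (median 3.69), 2.66-fold and without overlap (adjusted p = 1.39e-07). Nr6a1 rose 1.27-fold (adjusted p = 0.00804), with overlapping groups, less than the lncRNA by 1.07 ± 0.225 SE on the log2 scale (adjusted p = 0.000252).

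In some of these pairs both genes rose and their difference was not called. Zmiz1, a coactivator gene related to the PIAS family, was among the 4 partners with the smallest adjusted p. It rose from 67.5 to 98.0 CPM (median 86.2) to 150.1 to 227 (median 181), 2.10-fold and without overlap (adjusted p = 1.41e-11). Zmiz1os1 rose 2.17-fold, from 0 to 0.803 CPM to 0.855 to 1.67 CPM (adjusted p = 0.000188), and the difference within the pair was 0.21 ± 0.362 SE (adjusted p = 0.613). Sox6, a repressor of slow fibre genes in muscle, rose 1.46-fold and Sox6os, in its intron, 1.47-fold. Their difference was -0.05 ± 0.113 SE (adjusted p = 0.753). A difference that misses the threshold does not show equal change.

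Foxo6os and Foxo6 parted in the other direction. Foxo6 is a forkhead transcription factor gene, and the starts of the pair lie 4001 bases apart. Foxo6os was at 8.97 to 20.1 CPM in controls (median 14.4) and 5.99 to 17.0 in space muscle (median 13.0), overlapping and not called (-0.25, adjusted p = 0.221). Foxo6 rose from 2.68 to 5.92 CPM (median 4.90) to 6.27 to 8.84 (median 6.98), with no overlap, 1.59-fold (adjusted p = 1.49e-05). The lncRNA's level relative to Foxo6 dropped by 0.94 ± 0.150 SE (adjusted p = 2.67e-05). Irx3os, beside the homeobox gene Irx3, had 0.187 to 1.44 CPM in controls (median 0.578) and 0.350 to 2.03 in space muscle (median 1.07), overlapping and just outside the threshold (adjusted p = 0.0512). DESeq2 called it (0.77, adjusted p = 0.0250). Irx3 had 2.65 to 3.89 and 1.45 to 4.78 CPM and was not called (-0.28, adjusted p = 0.140). The pair difference of 1.09 ± 0.287 SE was called (adjusted p = 0.00176). Emx2os, next to the homeobox gene Emx2, was not called (0.07, adjusted p = 0.635), while Emx2 fell 1.46-fold from 2.89 to 4.81 CPM to 2.05 to 2.77 CPM, with the groups apart (adjusted p = 1.26e-05). Their difference was 0.61 ± 0.123 SE (adjusted p = 0.000506).

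**Figure D4:**
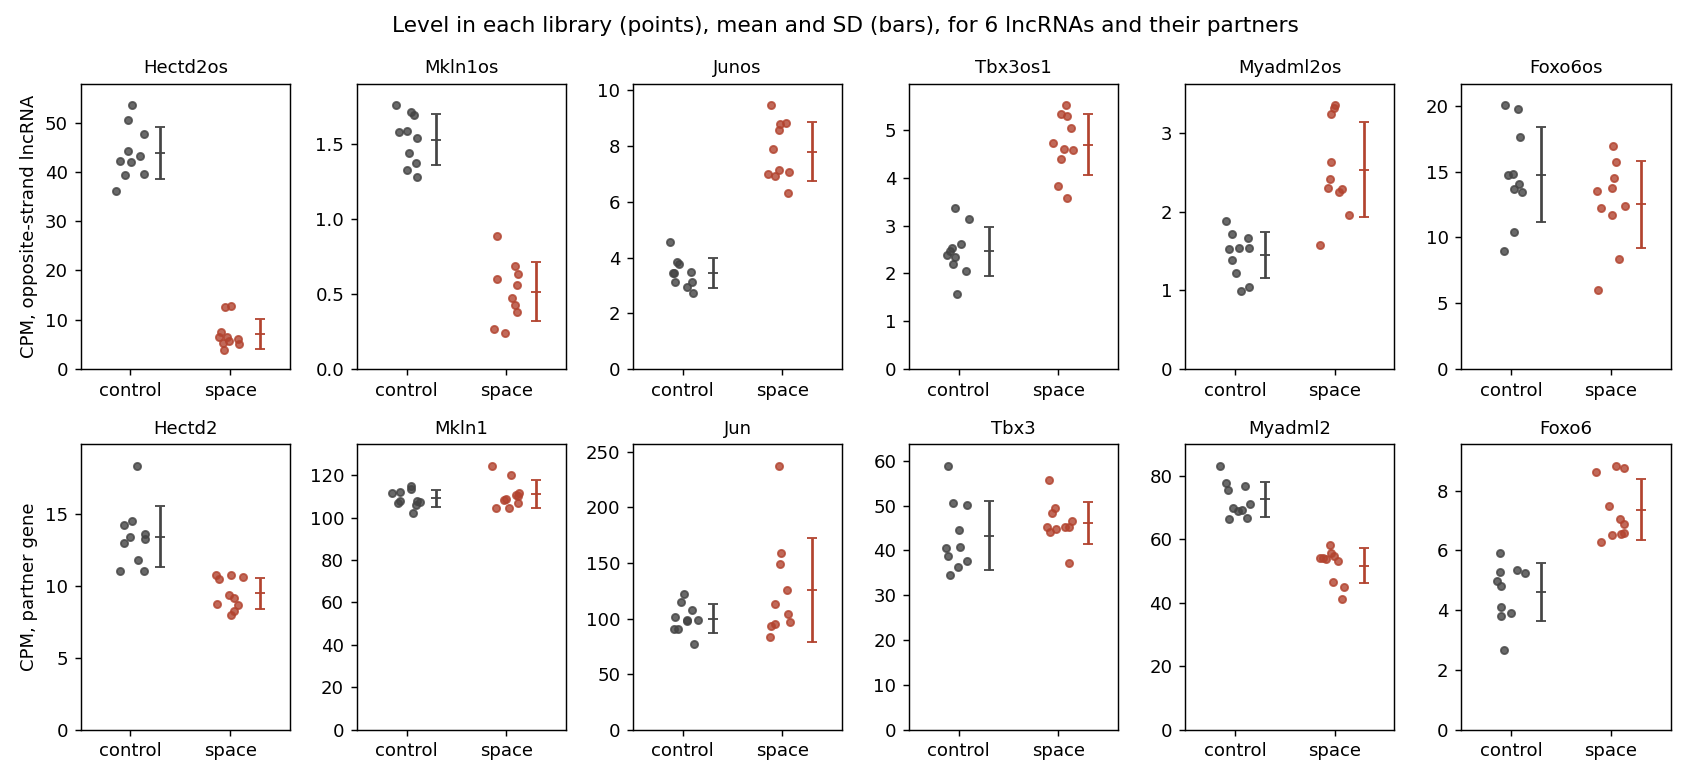
CPM in each library (points) with the group mean and SD (bars) for 6 lncRNAs (top row) and their partners (bottom row), control in grey and space in red, 10 libraries each, axes from 0. Hectd2os, Mkln1os, Junos and Tbx3os1 do not overlap between groups; Mkln1, Jun and Tbx3 do.

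Beside genes of signalling and membrane proteins, 10 of 16 members rose and none fell (62.5% called, 57.6% over all tested genes), with a median log2 fold change of 0.32. Here too the direction was that of all tested lncRNA members, 26 higher and 3 lower. Of 12 tested partners, 6 rose and 4 fell (83.3% called). Frmd8os overlaps exons of Frmd8, whose product binds iRhom proteins in the shedding of membrane proteins. It stood at 3.94 to 8.25 CPM in controls (median 6.88) and 11.2 to 19.8 in space muscle (median 14.9). Every space library was above every control, 2.25-fold (adjusted p = 1.6e-08), and Frmd8 rose 1.32-fold with overlap (adjusted p = 0.000596). Per kb, Frmd8os was 17.4 times as abundant as Frmd8. The lncRNA gained 0.80 ± 0.173 SE on its partner (adjusted p = 0.000481). Tnfsf13os and Tnfsf13, the gene of the cytokine APRIL, rose together, from 0.308 to 0.894 CPM to 0.749 to 1.49 for the lncRNA (2.16-fold, adjusted p = 1.53e-05) and 1.80-fold for the partner (adjusted p = 6.03e-05). Both overlapped slightly between groups, and their difference was not called (0.26 ± 0.238 SE, adjusted p = 0.344).

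Myadml2os rose where Myadml2, a gene of a membrane protein with MARVEL domains, fell. The lncRNA went from 0.988 to 1.88 CPM (median 1.53) to 1.58 to 3.36 (median 2.36), 1.75-fold with slight overlap (adjusted p = 3.69e-05). Myadml2 went from 66.5 to 83.3 CPM (median 70.5) to 41.2 to 58.4 (median 54.0), 1.41-fold lower with the groups apart (adjusted p = 9.68e-08). The log ratio of the pair rose by 1.27 ± 0.167 SE (adjusted p = 1.56e-06), and its groups did not overlap. Notumos starts downstream of Myadml2os on the same strand, 2096 bases on, and lies across from Notum, a secreted enzyme that inactivates Wnt proteins. Notumos rose from 0.125 to 0.494 CPM (median 0.225) to 0.316 to 1.22 (median 0.858), 2.68-fold with overlap (adjusted p = 4.32e-05). It was low in controls and may have passed the filter mainly through the space group, which favours a call. Notum averaged 0.149 and 0.142 CPM and was not tested. Whether the 2 neighbours are separate transcripts was not tested.

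Map2k3os begins head to head with Map2k3, a kinase gene of the p38 pathway. Map2k3 rose from 95.3 to 137 CPM (median 116) to 141 to 267 (median 211), 1.87-fold with no overlap (adjusted p = 2.77e-08). Map2k3os lay at 3.98 to 5.14 CPM in controls (median 4.63) and at 2.5 to 4.84 in space muscle (median 4.33). Its groups overlapped and it was not called (-0.11, adjusted p = 0.291). The lncRNA fell by 1.02 ± 0.0774 SE relative to its partner on the log2 scale (adjusted p = 1.47e-08), and the log ratios of the groups did not overlap. Tmem147os, divergent from the endoplasmic reticulum gene Tmem147 with starts 39 bases apart, rose from 2.98 to 3.96 CPM (median 3.63) to 4.25 to 5.59 (median 4.85), 1.36-fold without overlap (adjusted p = 1.04e-05). Tmem147 fell 1.12-fold (adjusted p = 0.0102), a call lost with library-size scaling (-0.08, adjusted p = 0.127) and without space replicates 1 to 4 (-0.11, adjusted p = 0.132). The difference of 0.60 ± 0.0727 SE kept its call without those 4 libraries (0.57, adjusted p = 0.000948).

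**Figure D5:**
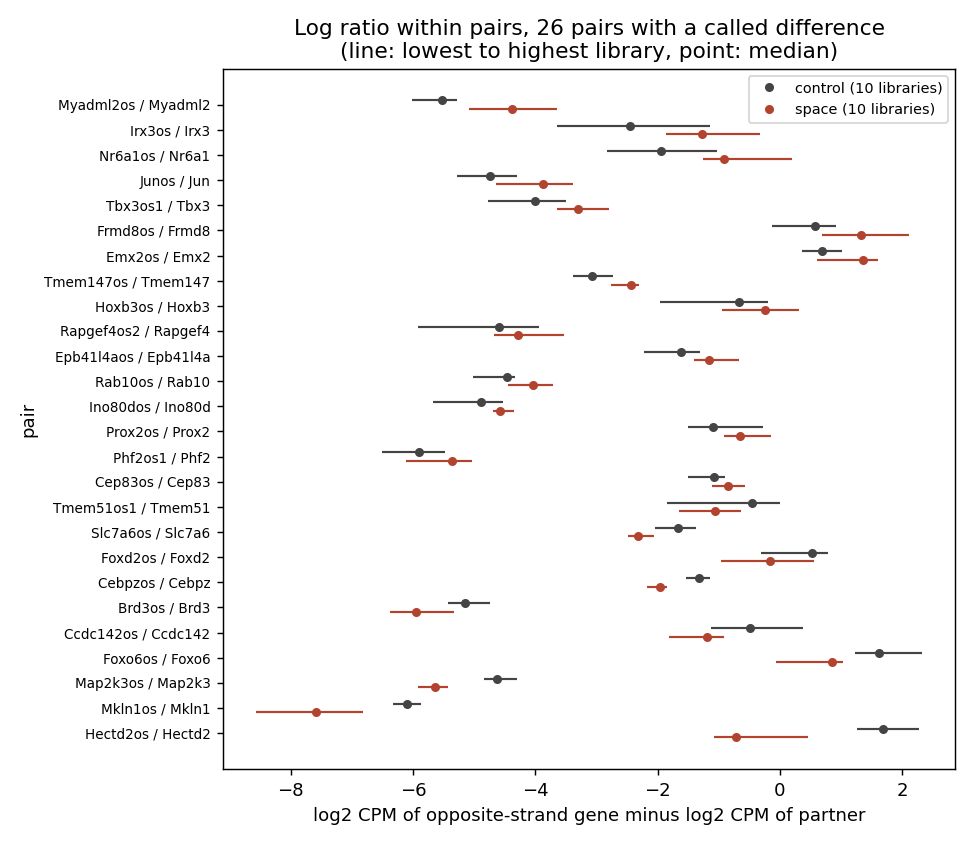
Log2 CPM of the opposite-strand gene minus that of its partner for the 26 pairs whose difference was called; lines run from the lowest to the highest of 10 libraries a group and points are medians. Control and space lines do not meet for Hectd2os, Mkln1os, Map2k3os, Foxo6os, Cebpzos, Slc7a6os and Myadml2os.

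Atcayos had the highest CPM of the members, a scale not corrected for length. Its level was 132 to 226 CPM in controls (median 163) and 147 to 239 in space muscle (median 206). The groups overlapped widely, with a 1.21-fold rise and 8 of 10 space libraries above the control mean (adjusted p = 0.0168). Atcay, a gene known from neurons, was too low to test, at means of 0.0719 and 0.127 CPM. Exons of Atcayos also overlap Nmrk2, a nicotinamide riboside kinase gene of muscle, on the opposite strand. Nmrk2 stood at 20.7 to 58.8 CPM in controls (median 42.4) and 0.899 to 79.0 in space muscle (median 3.44), with space replicate 7 the highest. The other tested members without a tested partner were Tspan32os, Plet1os, Hand2os1, Ctcflos and Tomm6os. Tspan32os had 0.721 to 1.45 CPM in space replicates 1 to 4 and 0.279 to 0.699 in the others, and Ctcflos 2.45 to 5.14 and 0.561 to 2.30, both highest in the libraries with the highest Schwann sums; the part of those cells in these values was not tested.

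Partners that act in the cytoskeleton, membrane traffic, ubiquitin and metabolism had 14 tested members. Of these, 3 rose and 2 (Hectd2os and Mkln1os) fell, 35.7% called against 57.6% over all tested genes. Of the 13 partners tested, 5 rose and 4 fell (69.2% called). Uckl1os, across from a uridine-cytidine kinase gene, stood at 21.5 to 30.1 CPM (median 24.0) in controls and 23.7 to 40.1 (median 32.4) in space muscle, 1.29-fold with overlap (adjusted p = 0.00213). Uckl1 rose 1.12-fold (adjusted p = 0.0182). Rab10os was at 8.28 to 13.8 CPM in controls (median 12.8) and 10.5 to 18.6 in space muscle (median 14.6), overlapping, 1.22-fold (adjusted p = 0.0103). Rab10, a small GTPase gene of vesicle traffic, was at 264 to 299.7 and 230.5 to 266 CPM, meeting only at the edge, 1.12-fold lower (adjusted p = 0.000562). Rab10os gained 0.45 ± 0.0950 SE on Rab10 (adjusted p = 0.00168). Epb41l4aos, counted with the signalling and membrane group, also had a partner called lower. It rose 1.23-fold (adjusted p = 0.0102). The fall of Epb41l4a (-0.24, adjusted p = 0.0240) lost its call without control replicate 3 (-0.19, adjusted p = 0.0573), without space replicates 1 to 4 (-0.21, adjusted p = 0.0920) and with library-size scaling (-0.16, adjusted p = 0.138).

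Partners in chromatin, RNA, DNA repair and the cell cycle had 11 tested members, 3 higher and 4 lower (63.6% called, 57.6% over all tested genes). Of the 11 partners tested, 4 rose and 2 fell (54.5% called). Of the 4 members that fell, Wdr83os, Cebpzos and Brd3os are annotated as protein-coding and Etaa1os is a lncRNA. Phf2os1, Ino80dos and H3f3aos rose 1.57-, 1.48- and 1.17-fold, the last with an adjusted p of 0.0459 that passed the threshold when some libraries were left out and missed it when others were. Wdr83os, which encodes a protein of a membrane protein chaperone complex, fell from 10.8 to 14.6 CPM (median 12.5) to 7.44 to 9.30 (median 8.97), 1.46-fold, and Wdr83 fell 1.46-fold too, both with the groups apart. Their difference was 0.01 ± 0.0906 SE (adjusted p = 0.938). Cebpzos fell from 9.51 to 11.9 CPM (median 10.6) to 7.32 to 8.95 (median 8.24), 1.30-fold (adjusted p = 1.71e-06). Cebpz rose 1.24-fold (adjusted p = 1.14e-06), and the groups were apart for both genes. Etaa1os and Etaa1, an activator of the ATR kinase, fell 1.58- and 1.45-fold.

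The 3 remaining partners with the smallest adjusted p had opposite-strand lncRNAs too low to test. Sspn, a gene of the dystrophin complex, fell from 120.3 to 148 CPM (median 129) to 53.6 to 72.8 (median 68.6), 1.94-fold (adjusted p = 7.48e-14). Taco1, a translational activator in mitochondria, fell from 27.3 to 33.7 CPM (median 30.7) to 12.2 to 18.1 (median 14.0), 2.10-fold (adjusted p = 1.72e-12). Slmap, a sarcolemma-associated protein gene, fell from 198 to 244 CPM (median 214) to 108 to 143 (median 128), 1.68-fold (adjusted p = 4.9e-12). None of these partners overlapped between groups. Over all 20 libraries Sspnos had 27 counts, Taco1os 45 and Slmapos2 1.

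Per kb of exon, the lncRNA was above its partner in 12 of the 48 pairs with both genes tested and no protein-coding member. The ratio ran from 22.9 for Brip1os to 0.0167 for Zmiz1os1. Within a group, lncRNA and partner showed no called relation. Over the 10 control libraries, Pearson's r of log2 CPM ran from -0.669 to 0.596 over 53 pairs, with 25 positive, and none passed after adjustment (lowest adjusted permutation p = 0.798; 2 unadjusted under 0.05). In space replicates 5 to 10 (n = 6), 24 were positive and none passed. The highest was Rapgef4os2 with Rapgef4 (r = 0.982, adjusted permutation p = 0.0816; Spearman's rho = 1.0, adjusted permutation p = 0.156; r = 0.988 without the 2 libraries farthest from the median), where the controls gave r = -0.041.

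For scale, 10 antisense or overlapping transcripts named by other conventions were in the table and 5 were tested. Myhas, an antisense transcript of the fast myosin heavy chain cluster, rose by 3.92 on the log2 scale (adjusted p = 3.14e-09). Airn (0.44) and Kcnq1ot1 (0.29), both of imprinted clusters, rose as well, Sox2ot, which overlaps Sox2 on the same strand and is not antisense to it, fell (-2.13, adjusted p = 2e-05), and Zfas1 was not called (adjusted p = 0.175). Several members also overlap another transcript model on their own strand that moved the same way: Junos with Gm28096 (log2 fold change 2.13), Tbx3os1 with Gm43399 (1.03), Tmem147os with Gm26935 (0.42), Zmiz1os1 with Gm26660 (0.95) and Ino80dos with Gm20342 (0.60). No source used here says how reads shared by such models were assigned, and these values are uncertain.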

How the data were processed

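RNA of 20 soleus muscles, depleted of ribosomal RNA, was sequenced from 90 ng of total RNA, per the labels' protocols. The authors deposited raw read counts per Ensembl gene in 1 table. Per the submitters' processing notes, Subread, featureCounts 1.5.1, edgeR, MultiQC 1.15 and the build GRCm39 were used; no source used here gives their roles, a strand setting or an annotation release. Groups came from the labels, and no 2 columns were identical.

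Identifiers were matched to GENCODE M21 (GRCm38) for names and layout (51948 of 56941). Counts were fitted in R 4.3.3 with edgeR 4.0.16: filterByExpr (minimum count 10, minimum total 15), TMM, robust quasi-likelihood test, Benjamini-Hochberg adjustment over 16778 genes, threshold 0.05. CPM used TMM-scaled library sizes. SEs were taken from the library spread of log2 CPM (prior count 2) in both groups. Pair differences were tested with limma 3.58.1 on log2 CPM of the lncRNA minus that of its partner. Per-kb levels divide CPM by exon length. Correlations used permutation tests (100000 resamples). Both fits were run on simulated data in which far fewer genes and pairs changed than were called here, so no error rate is drawn from it. Alternatives were DESeq2 1.42.0, other scalings and filters, limma-voom, the replicate number as a block, and libraries left out. Depth limits precision for the low lncRNAs. One member was left out by rule.

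Members, lists and tests were chosen with earlier results of these data known. The text gives library values for the 10 called lncRNAs with the smallest adjusted p at a mean of at least 0.5 CPM, the 5 most abundant, the 5 pairs with the largest called difference, their partners, and the 4 partners with the smallest adjusted p. Values of other members were chosen after they were seen.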

Additional observations from a re-analysis of the deposited data

Results flagged for a closer look

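For the named genes, 60 sets of 10 libraries were checked for a library far from the rest by Dixon's gap test. Chance gives about 1 in 20, and 5 were found. Rab10os was at 8.28 CPM in control replicate 5, where the next lowest control had 10.9. Jun reached 238 CPM in space replicate 7, where the next highest space library had 159. Control replicate 6 was far in both Hectd2, at 18.4 CPM against 14.5 for the next, and Tmem147, at 24.0 CPM against 28.6. Atcay, which was too low to test, was at 0.208 CPM in control replicate 8, where the next had 0.0988.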

How the results depend on the processing

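Of 4643 single-gene and pair values under the alternatives, 4495 kept their direction and side of the threshold, 78 lost a call, 67 gained one and 3 reversed. The reversals all concerned Has2, not called with all libraries (log2 fold change 0.25): -0.48 with the DESeq2 test, -0.61 without space replicates 1 to 4 and -0.51 without space replicate 1, which held 9.66 CPM. Leaving out other single libraries gave Has2 up to 0.35. With no filter on low counts, 37 lncRNAs were called higher and 9 lower, against 26 and 3, as more genes were then tested. In the other alternatives, 19 to 30 lncRNAs were higher and 2 to 4 lower. Library size alone moved the median of all genes to a log2 fold change of 0.10, from 0.02, and gave 61 partners higher and 41 lower. Leaving out 1 library in turn gave 25 to 28 lncRNAs higher and 3 to 4 lower, 50 to 56 partners higher and 49 to 53 lower, and 19 to 24 differing pairs, against 23 among pairs without a protein-coding member. Hoxa11os, H3f3aos and Epb41l4a, and the pair differences of Phf2os1, Cep83os, Rapgef4os2 and Tmem51os1, lost their calls without some single libraries. For H3f3aos and the differences of Phf2os1 and Tmem51os1, many of the single removals did so. H3f3aos also lost its call with limma-voom (adjusted p = 0.0580), the replicate block (adjusted p = 0.0715) and no filter (adjusted p = 0.0876). The sample numbers did not pair libraries (0 of 10 correlations over 0.1, from -0.132 to 0.0982). With the replicate block, 27 lncRNAs were higher and 3 lower, 52 partners higher and 52 lower, and 22 pairs differed; no library correlated best with its own number. Members under about 0.3 CPM were beyond this depth.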
